A study of Mus musculus with 19 samples.

Results

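The genes of sterol and fatty acid synthesis are 32 mouse genes chosen by name. They encode enzymes that build cholesterol from acetyl-CoA, regulators of those enzymes, a sterol transporter, and enzymes that make, lengthen and desaturate fatty acids. Each gene was read from a probe set that carries its symbol alone, the brightest where a gene had several. By that rule 31 of the 32 were measured, among 19752 genes in all, and Acat2 was not analysed here. No filter on low values was used, so all 31 measured genes entered every fit. Their mean intensities ranked between the 39.4 percentile (Tm7sf2) and the 99.1 percentile (Scd1) of all genes.

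The study asked how blocking JAK1 or JAK3 alters the response of natural killer (NK) cells, cytotoxic lymphocytes of innate immunity, to interleukin-2 (IL-2). All 19 samples were RNA of NK cells enriched by negative selection from spleens of male C57BL/6 mice aged 6 weeks, each hybridized to an Affymetrix Mouse Gene 1.0 ST array. A JAK3 inhibitor was added to IL-2 at 0.25, 1 and 4 µM (2 samples at each dose), and a JAK1 inhibitor at 0.25 and 1 µM (2 samples each) and at 0.0625 and 4 µM (1 sample each); both are known here by code names only. Their reference was IL-2 alone (250 U/ml for 8 h, 4 samples), and the reference for IL-2 was untreated cells (3 samples, of which 2 are marked 8 h and 1 carries no culture time). Separate mice or cultures are not named for samples of a group, so every p-value reflects only how far these samples scatter, and that scatter could be technical. The cells were bulk preparations, in which fewer cells of a type and less RNA per cell cannot be told apart.

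Cholesterol synthesis joins acetyl-CoA units into mevalonate, turns mevalonate into squalene, and folds squalene into lanosterol, which a further chain of enzymes converts to cholesterol. Fatty acid synthesis starts from the same acetyl-CoA. Both are driven by the SREBP transcription factors, which SCAP escorts out of the endoplasmic reticulum when sterols are low and which the INSIG proteins hold back when sterols are plentiful. Activated lymphocytes draw on both pathways to build membrane. IL-2 signals through JAK1 and JAK3, which are bound to its receptor chains and phosphorylate STAT5.

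The arrays lay on 2 intensity scales. A high-intensity set of 7 samples held untreated replicate 2, IL-2 replicates 1 and 2, and replicate 1 of each inhibitor at 0.25 and 1 µM. The low-intensity set held the other 12, among them every sample at 0.0625 and 4 µM. Levels below are log2 intensities with each gene's fitted difference between the sets taken off the high-intensity samples (set-adjusted). Changes come from a limma fit over all 19 samples with a term for the set, p-values are adjusted over all 19752 genes by Benjamini-Hochberg with a threshold of 0.05, and ± marks the standard error (SE) of a log2 change unless SD is named. A gene that met the threshold is said to have risen or fallen. Cish, Socs1, Il2ra and Gzmb, which IL-2 is known to induce, all rose with IL-2. All 4 fell at every JAK3 inhibitor dose and at 1 and 4 µM JAK1 inhibitor, 3 of the 4 fell at 0.25 µM, and none passed at 0.0625 µM.

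Some samples stood low. Untreated replicate 3 was the lowest of its group for 27 of the 31 genes, as it was for 52.0% of all genes. JAK3 inhibitor 4 µM replicate 1 was below replicate 2 for 28 of the 31, as it was for 70.9% of all genes. IL-2 replicate 1 was the lowest of its group for 21 of the 31 and for 33.9% of all genes. The upper quartile of the whole array (set-adjusted log2) was 6.79 in untreated replicate 3, against 7.01 and 7.20 in its group. It was 6.94 in JAK3 inhibitor 4 µM replicate 1 and 7.30 in replicate 2, and IL-2 replicate 1 was again the lowest of its group. Brighter genes in general thus read low in these samples, so the low values are not read as particular to the 31 genes. The shares over all genes include dim genes. Values without these samples stand beside the main results below. Among markers of other cells, 9 of 13 macrophage and monocyte genes and 8 of 12 neutrophil genes were lower with IL-2, 3 of 9 B cell genes were lower, and 0 of 9 T cell genes passed. Of 9 dendritic cell genes 2 were lower (Cd209a, -2.10, and Flt3, -0.90) and 2 higher (Bst2, 0.95, and Clec9a, 0.39). Of 10 NK cell markers 9 rose. The mean set-adjusted level of the macrophage and monocyte list was 6.86 to 7.23 in IL-2 samples and 8.09 to 8.42 in untreated samples. The array gives no detection values, so no marker can be called absent.

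The 4 promoters shown are those of the genes whose changes carry the results below and for which RefSeq gives a window: Fasn (fatty acid synthase), Lss (lanosterol synthase), Hsd17b7 (a sterol ketone reductase) and Acss2 (acetyl-CoA synthetase). Each is the 250 bases before the start of transcription, 5′ to 3′ on the gene's strand, from RefSeq on GRCm38.p6. Fasn lies at chr11:120824548-120824797 on the minus strand, Lss at chr10:76531355-76531604 on the plus strand, Hsd17b7 at chr1:169969206-169969455 on the minus strand and Acss2 at chr2:155517793-155518042 on the plus strand. Capitals mark the NF-Y box (CCAAT, or ATTGG on the other strand) and the Sp1 box (GGGCGG, or CCGCCC). NF-Y and Sp1 are known as partners of SREBP at its target promoters.
Fasn: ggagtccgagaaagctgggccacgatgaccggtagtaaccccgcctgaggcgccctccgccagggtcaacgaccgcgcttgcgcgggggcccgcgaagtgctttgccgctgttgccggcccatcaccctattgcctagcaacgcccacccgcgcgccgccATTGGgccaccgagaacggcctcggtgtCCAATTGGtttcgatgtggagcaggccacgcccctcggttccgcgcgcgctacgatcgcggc
Lss: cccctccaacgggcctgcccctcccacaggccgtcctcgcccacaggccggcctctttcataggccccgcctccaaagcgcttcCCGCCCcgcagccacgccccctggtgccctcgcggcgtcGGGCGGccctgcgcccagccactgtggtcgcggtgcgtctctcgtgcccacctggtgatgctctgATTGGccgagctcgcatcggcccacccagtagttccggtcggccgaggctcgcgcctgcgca
Hsd17b7: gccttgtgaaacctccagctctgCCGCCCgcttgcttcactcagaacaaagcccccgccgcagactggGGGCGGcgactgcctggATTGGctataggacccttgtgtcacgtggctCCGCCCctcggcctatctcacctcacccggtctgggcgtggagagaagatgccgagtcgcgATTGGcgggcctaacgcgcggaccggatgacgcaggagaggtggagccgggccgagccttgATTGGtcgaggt
Acss2: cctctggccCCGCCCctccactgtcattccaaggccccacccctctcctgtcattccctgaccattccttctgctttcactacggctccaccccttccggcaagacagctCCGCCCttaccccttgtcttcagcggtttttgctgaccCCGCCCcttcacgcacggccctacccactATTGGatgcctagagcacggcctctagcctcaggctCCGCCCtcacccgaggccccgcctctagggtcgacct
In Fasn a CCAAT and an ATTGG overlap, starting 62 and 59 bases before the start site, and a further ATTGG starts at 90. Hsd17b7 has 3 NF-Y boxes and 3 Sp1 boxes, and Acss2 has 1 NF-Y box and 4 Sp1 boxes. Lss has 1 NF-Y box and 2 Sp1 boxes.

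Promoters were given for 24 of the 31 genes (32 windows, since some genes have several start sites). An NF-Y box was in 20 of these 32 windows (62.5%), against 34.6% of the 19019 windows of all measured genes. A Sp1 box was in 23 (71.9%), against 45.7%. The sterol response element SRE-1, the binding sequence of SREBP as first described in the LDL receptor gene, was in 0 windows, against 0.0526% of all windows, and the looser form TCACNCCAC was in 1 (Hmgcs1; 3.12% against 1.01%). The STAT motif TTCNNNGAA was in 1 (Ebp; 3.12%, against 6.54% of all windows). Motifs were searched on both strands. Of these, only SRE-1 overlaps another motif, since each SRE-1 also holds the looser form, and a match is a run of letters, not a shown binding site.

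IL-2 raised the fatty acid synthase gene and 2 of 10 genes between squalene and cholesterol, and lowered the gene of a desaturase. Fasn rose 2.16-fold, Lss and Hsd17b7 rose, and Scd1, the stearoyl-CoA desaturase that makes monounsaturated fatty acids, fell. Over the 31 genes 3 were called higher and 1 lower, and 27 did not pass. Of all 19752 genes 6.56% were called higher and 2.59% lower. The counts lie near those shares, so they are not read as a result about the whole list. The median log2 change was 0.19 over the 31 genes and -0.01 over all genes, and 25 of the 31 lay above 0, as did 9368 of the 19752. Without untreated replicate 3 the median over the 31 genes was 0.06 and 20 lay above 0, beside a median of -0.03 and 8174 genes above 0 over all genes. After quantile normalization the median of the 31 was 0.05, 20 lay above 0, and 4 were called higher and 2 lower, where 7.33% and 6.27% of all genes were.

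**Figure D1:**
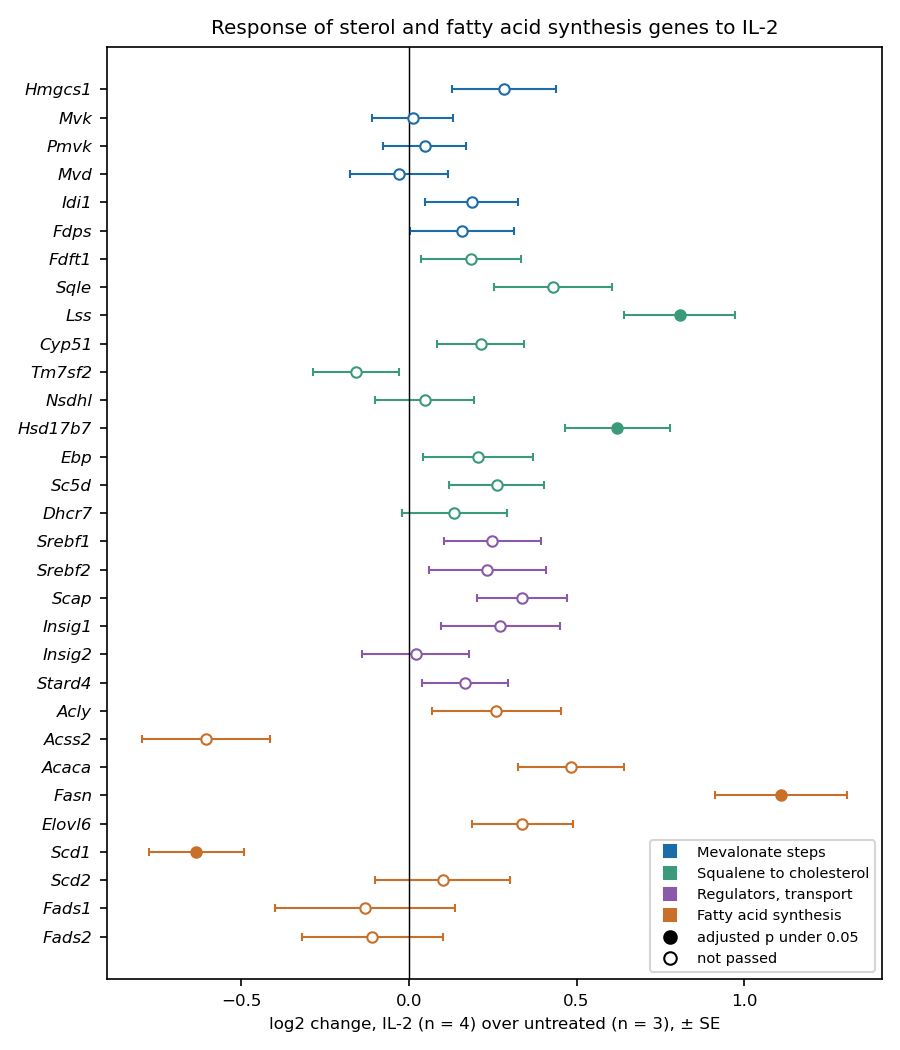
Log2 change of each of the 31 genes, IL-2 (4 samples) over untreated (3 samples), with points coloured by role, bars of ± 1 SE, and filled points for an adjusted p under 0.05. Fasn (1.11), Lss (0.81) and Hsd17b7 (0.62) are the filled points right of 0, and Scd1 (-0.63) is the filled point on the left, beside the open point of Acss2 (-0.60).

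Fasn, which makes palmitate, read 9.03, 9.35, 9.18 and 9.30 in IL-2 samples and 8.36, 7.54 and 8.41 in untreated samples (set-adjusted log2). Every IL-2 sample lay above every untreated one. The difference was 1.11 ± 0.20 (limma, adjusted p = 0.000624). Lss, which folds squalene epoxide into lanosterol, read 6.60, 7.16, 7.08 and 7.06 with IL-2, and 6.46, 5.77 and 6.27 untreated. Here too the groups did not overlap, although IL-2 replicate 1 came near untreated replicate 2. Its difference was 0.81 ± 0.17 (limma, adjusted p = 0.00246). Hsd17b7, which acts in the removal of methyl groups after lanosterol, read 6.97, 7.41, 7.33 and 7.36 in IL-2 samples and 6.78, 6.43 and 6.72 in untreated samples. The IL-2 samples were all higher, by 0.62 ± 0.16 on average (limma, adjusted p = 0.0130).

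Scd1 went the other way, with 9.57, 9.63, 9.76 and 9.39 in IL-2 samples and 10.37, 9.83 and 10.45 in untreated samples. The difference was -0.63 ± 0.14 (limma, adjusted p = 0.00519), a level 1.55-fold lower with IL-2. Acss2, which makes acetyl-CoA from acetate, read 7.13, 7.23, 7.05 and 7.05 with IL-2, and 7.90, 7.30 and 7.97 untreated. No IL-2 sample reached an untreated one, but the difference of -0.60 ± 0.19 missed the threshold (limma, adjusted p = 0.0523). The macrophage and monocyte markers moved in the same direction as Scd1 and Acss2, as 9 of 13 were lower with IL-2 (median log2 change -1.08). Their part in the result was not tested.

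None of the 6 genes of the mevalonate steps passed. Their log2 changes ran between -0.03 (Mvd, mevalonate decarboxylase) and 0.28 (Hmgcs1, HMG-CoA synthase), with a median of 0.10. Of the 10 genes between squalene and cholesterol 2 rose, Lss and Hsd17b7, and the median was 0.21. Sqle, the squalene epoxidase that acts just before Lss, differed by 0.43 ± 0.18 without passing (limma, adjusted p = 0.164), and Tm7sf2, a sterol reductase, lay at -0.16. The 6 regulators and transport genes were all above 0 (0.02 to 0.34) and none passed. They include Srebf1 (0.25) and Srebf2 (0.23), which encode the SREBPs, Insig1 (0.27) and Scap (0.34). Of the 9 fatty acid genes 1 rose and 1 fell. Acaca, the acetyl-CoA carboxylase that commits acetyl-CoA to fatty acids, lay at 0.48 ± 0.16 (limma, adjusted p = 0.0631), and Elovl6, which lengthens palmitate, at 0.34. Acly, the citrate lyase that supplies cytosolic acetyl-CoA, lay at 0.26, Scd2 at 0.10, and the polyunsaturated fatty acid desaturases Fads1 and Fads2 at -0.13 and -0.11. Second probe sets of Acaca (0.46), Fdft1 (0.18) and Idi1 (0.14) gave changes close to those of the brighter ones (0.48, 0.19 and 0.19).

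Without untreated replicate 3 the call of Hsd17b7 ended (0.52, limma adjusted p = 0.0586) while Fasn (0.83), Lss (0.61) and Scd1 (-0.82) kept theirs and Acss2 gained one (-0.82); leaving out IL-2 replicate 3 or 4 also ended the call of Hsd17b7 (0.60 and 0.58). Without untreated replicate 2, 6 genes passed (5 higher and 1 lower, where 11.6% and 3.98% of all genes were), with Sqle (0.59) and Acaca (0.64) added, and without IL-2 replicate 1 Acaca was added (0.56). Within the low-intensity set alone Lss passed (1.05), and Fasn (1.26), Hsd17b7 (0.77), Scd1 (-0.57) and Acss2 (-0.58) had the same direction without passing. Within the high-intensity set alone, with 1 residual degree of freedom, 0 genes of the whole table passed and the changes were 0.83 for Fasn, 0.42 for Lss, 0.41 for Hsd17b7, -0.77 for Scd1 and -0.71 for Acss2.

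With the JAK3 inhibitor, Fasn and Lss fell below their level in IL-2 alone at 1 and 4 µM, while Scd1 rose at every dose and Acss2 at 0.25 and 1 µM. At 0.25 µM 2 of the 31 genes were called higher and 0 lower, where 2.74% and 2.26% of all genes were. At 1 µM 2 were higher and 2 lower, where 2.86% and 3.69% of all genes were. At 4 µM 1 was higher and 2 lower, where 3.01% and 4.5% of all genes were. The medians of the 31 genes were -0.04, -0.14 and -0.08 at 0.25, 1 and 4 µM, beside 0.06, 0.02 and -0.04 over all genes. These comparisons, and those of the JAK1 inhibitor, share the 4 samples of IL-2 alone.

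**Figure D2:**
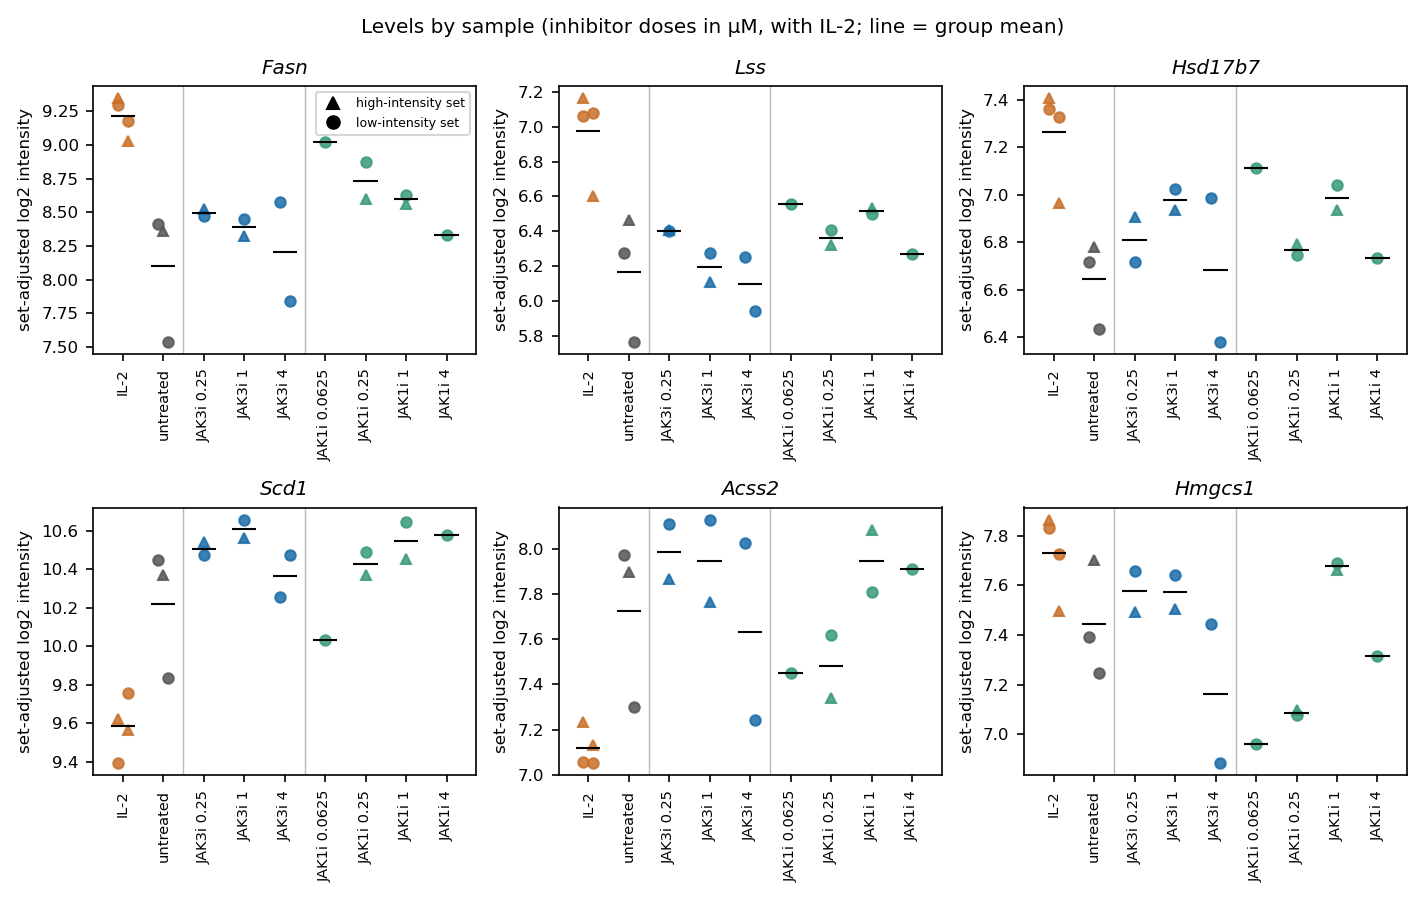
Set-adjusted log2 intensity of 6 genes in each of the 19 samples, by group, with triangles for the high-intensity set, circles for the low-intensity set and a line at the group mean. On average Fasn, Lss and Hsd17b7 are highest with IL-2 alone, Scd1 and Acss2 are lowest there, and Hmgcs1 is low at 0.0625 and 0.25 µM JAK1 inhibitor and in 1 sample at 4 µM JAK3 inhibitor.

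Fasn read 9.03 to 9.35 with IL-2 alone, 8.52 and 8.47 with 0.25 µM JAK3 inhibitor, 8.33 and 8.45 with 1 µM, and 7.84 and 8.57 with 4 µM. All 6 inhibitor samples were below all 4 samples of IL-2 alone. The log2 changes were -0.72 ± 0.22 at 0.25 µM (limma, adjusted p = 0.0730), -0.82 ± 0.22 at 1 µM (adjusted p = 0.0263) and -1.01 ± 0.23 at 4 µM (adjusted p = 0.00770). Lss read 6.60 to 7.16 with IL-2 alone, 6.41 and 6.40 with 0.25 µM, 6.11 and 6.28 with 1 µM, and 5.94 and 6.25 with 4 µM. Again no inhibitor sample reached the lowest of IL-2 alone. Its changes were -0.57 ± 0.19 (limma, adjusted p = 0.0961), -0.78 ± 0.19 (adjusted p = 0.0113) and -0.88 ± 0.19 (adjusted p = 0.00605) at 0.25, 1 and 4 µM. Hsd17b7 lay at -0.45, -0.29 and -0.58 at these doses and passed at none.

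Scd1 read 9.39 to 9.76 with IL-2 alone, 10.54 and 10.47 with 0.25 µM JAK3 inhibitor, 10.56 and 10.66 with 1 µM, and 10.47 and 10.26 with 4 µM. Each inhibitor sample was above each sample of IL-2 alone. The rises were 0.92 ± 0.16, 1.03 ± 0.16 and 0.78 ± 0.17 (limma, adjusted p = 0.000994, 0.000238 and 0.00432), of which the largest is a 2.04-fold difference. Acss2 read 7.05 to 7.23 with IL-2 alone, 7.86 and 8.11 with 0.25 µM, 7.76 and 8.13 with 1 µM, and 7.24 and 8.02 with 4 µM. Replicate 1 at 4 µM stood just above the highest IL-2 sample. The changes were 0.87 ± 0.21 and 0.83 ± 0.21 at 0.25 and 1 µM (limma, adjusted p = 0.0192 and 0.0208), and 0.52 ± 0.22 at 4 µM (adjusted p = 0.202). Macrophage and monocyte markers were higher for 8, 9 and 8 of 13 at the 3 doses, and their mean level was 8.26 to 8.37 in these samples against 6.86 to 7.23 with IL-2 alone. Of 12 neutrophil markers 5, 7 and 4 were higher, with mean levels of 7.95 to 8.64 in the inhibitor samples and 7.51 to 7.71 with IL-2 alone. Of 10 NK cell markers 10, 10 and 7 were lower at 0.25, 1 and 4 µM, with mean levels of 7.38 to 7.89, against 8.83 to 9.28 with IL-2 alone. Of 9 dendritic cell markers 3, 3 and 2 were higher and 0, 1 and 2 lower, of 9 B cell markers 3, 0 and 2 were higher, and no T cell marker passed. The macrophage and monocyte, neutrophil and NK cell lists thus shifted at all 3 doses. The part of these 3 lists in the results was not tested.

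Among the other genes Idi1, the isomerase that makes the reactive isoprene unit, lay at -0.49 with 0.25 µM (limma, adjusted p = 0.0847) and -0.52 with 4 µM (adjusted p = 0.0616), and Hmgcs1 at -0.57 with 4 µM (adjusted p = 0.0689). Nsdhl, a sterol dehydrogenase, lay at 0.36 with 4 µM without passing. The regulators ran between -0.39 (Insig1 at 4 µM) and 0.18 (Srebf2 at 0.25 µM) and none passed.

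Without JAK3 inhibitor 4 µM replicate 1 the calls of Fasn (-0.64), Lss (-0.72) and Scd1 (0.67) at 4 µM ended and Acss2 passed (0.91), and the median of the 31 genes was 0.13, with 21 above 0, beside 0.04 over all genes; without replicate 2, 6 genes passed (1 higher and 5 lower, where 1.96% and 6.69% of all genes were), among them Fasn (-1.37), Hsd17b7 (-0.88) and Hmgcs1 (-0.85). At 1 µM, leaving out either inhibitor sample left Scd1 (1.08 and 0.97) as the only call, IL-2 replicate 2 was needed for the call of Fasn (-0.77 without it), and IL-2 replicates 3 and 4 for those of Fasn (-0.84 and -0.79) and Acss2 (0.80 and 0.80). At 0.25 µM no call was left without replicate 1 (Scd1 0.88, Acss2 1.01) and Scd1 alone (0.96) without replicate 2. Acss2 also lost its call there without IL-2 replicate 3 or 4 (0.84 and 0.84). Without IL-2 replicate 1, Idi1 (-0.60) and Lss (-0.71) were added at 0.25 µM, and Hmgcs1 (-0.63), Idi1 (-0.60) and Hsd17b7 (-0.66) at 4 µM. After quantile normalization the split at 0.25 µM was 2 higher and 3 lower, where 4.6% and 4.44% of all genes were called, with Fasn (-0.72), Lss (-0.58) and Hsd17b7 (-0.47) added.

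With the JAK1 inhibitor, Scd1 rose at 0.25, 1 and 4 µM and Acss2 rose at 1 µM. At 0.0625 µM, in a single sample, 0 of the 31 genes passed, where 0.00506% of all genes were called higher and 0.0152% lower. At 0.25 µM 1 was higher and 0 lower, where 0.729% and 1.52% of all genes were. At 1 µM 2 were higher and 0 lower, where 2.85% and 2.31% of all genes were. At 4 µM, again in 1 sample, 1 was higher and 0 lower, where 1.14% and 2.63% of all genes were. The medians of the 31 genes were -0.15, -0.14, 0.00 and -0.13 at 0.0625, 0.25, 1 and 4 µM, beside 0.08, 0.05, 0.08 and -0.10 over all genes. The 0.0625 and 4 µM samples were taken to vary like the replicated groups. Their values cannot be checked against a replicate.

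**Figure D3:**
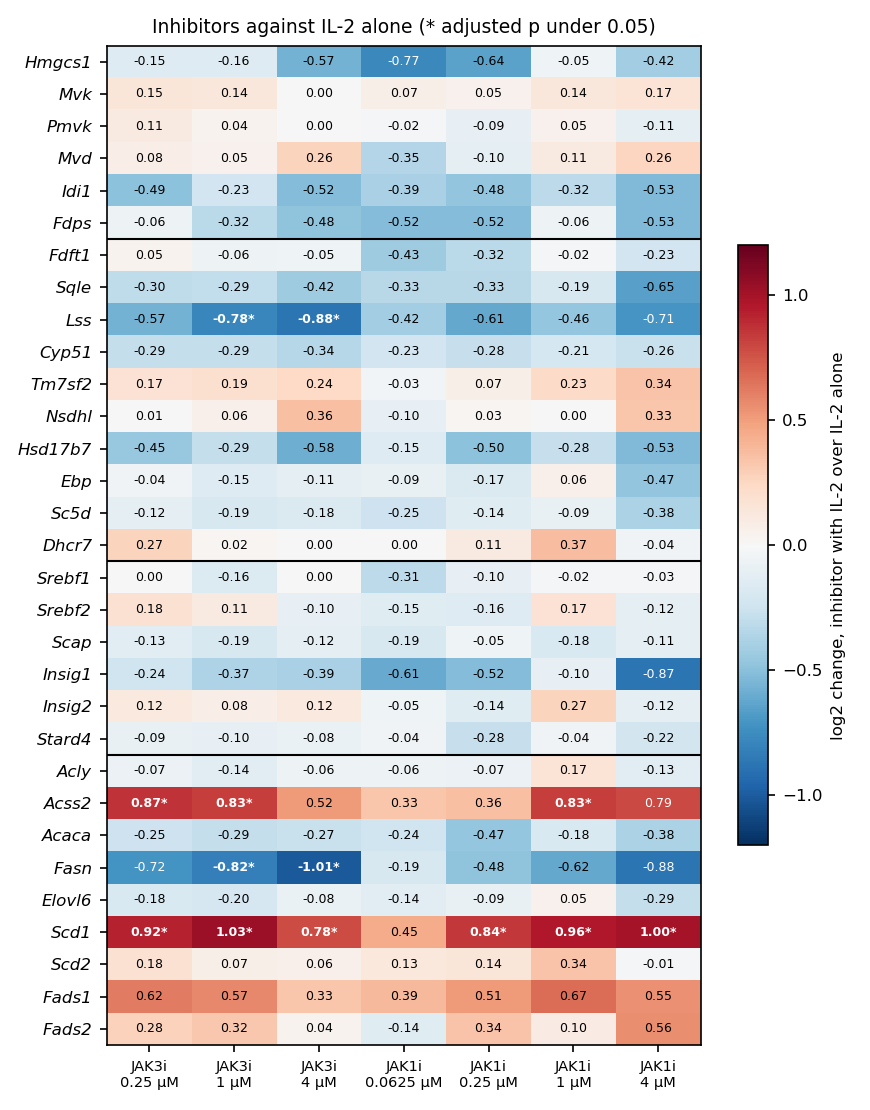
Log2 change of each of the 31 genes at each dose of JAK3 inhibitor (left 3 columns) and JAK1 inhibitor (right 4 columns) over IL-2 alone, with asterisks for an adjusted p under 0.05 and lines between mevalonate, squalene to cholesterol, regulator and fatty acid genes. Scd1 is above 0 in all 7 columns (0.45 to 1.03) and Lss below 0 in all 7 (-0.88 to -0.42).

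Scd1 read 9.39 to 9.76 with IL-2 alone, 10.04 with 0.0625 µM JAK1 inhibitor, 10.37 and 10.49 with 0.25 µM, 10.45 and 10.65 with 1 µM, and 10.58 with 4 µM. All 6 samples lay above IL-2 alone. The changes were 0.45 ± 0.21 at 0.0625 µM (limma, adjusted p = 0.399), 0.84 ± 0.16 at 0.25 µM (adjusted p = 0.00602), 0.96 ± 0.16 at 1 µM (adjusted p = 0.000563) and 1.00 ± 0.21 at 4 µM (adjusted p = 0.00777). Acss2 read 7.05 to 7.23 with IL-2 alone, 7.45 with 0.0625 µM, 7.34 and 7.62 with 0.25 µM, 8.08 and 7.81 with 1 µM, and 7.91 with 4 µM. No sample overlapped with IL-2 alone, yet the call passed at 1 µM only, with 0.83 ± 0.21 (limma, adjusted p = 0.0250); the values at the other doses were 0.33, 0.36 and 0.79. Macrophage and monocyte markers were higher for 0, 5, 9 and 8 of 13 genes at the 4 doses, with mean levels of 7.34 at 0.0625 µM, 7.48 to 7.66 at 0.25 µM, 8.15 to 8.37 at 1 µM and 8.02 at 4 µM, against 6.86 to 7.23 with IL-2 alone. Neutrophil markers were higher for 0, 1, 6 and 5 of 12 genes, and NK cell markers lower for 0, 0, 8 and 7 of 10. Dendritic cell markers were higher for 0, 1, 3 and 2 of 9 and lower for 0, 0, 1 and 1. B cell markers were higher for 0, 0, 1 and 1 of 9, and no T cell marker passed. The part of these cells in the result was not tested.

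Fasn read 9.03 to 9.35 with IL-2 alone, 9.02 with 0.0625 µM, 8.60 and 8.87 with 0.25 µM, 8.56 and 8.63 with 1 µM, and 8.33 with 4 µM. The groups did not overlap, but none of the changes (-0.19, -0.48, -0.62 and -0.88) passed, with adjusted p (limma) of 0.824, 0.374, 0.143 and 0.118. Lss read 6.60 to 7.16 with IL-2 alone, 6.56 with 0.0625 µM, 6.32 and 6.41 with 0.25 µM, 6.53 and 6.50 with 1 µM, and 6.27 with 4 µM. Its changes of -0.42, -0.61, -0.46 and -0.71 did not pass (limma, adjusted p = 0.501, 0.104, 0.223 and 0.141). Hsd17b7 read 6.97 to 7.41 with IL-2 alone, 7.11 with 0.0625 µM, 6.79 and 6.75 with 0.25 µM, 6.93 and 7.04 with 1 µM, and 6.73 with 4 µM. It overlapped with IL-2 alone at 0.0625 and 1 µM and passed at no dose.

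Hmgcs1 read 7.50 to 7.87 with IL-2 alone, 6.96 with 0.0625 µM, 7.10 and 7.08 with 0.25 µM, 7.66 and 7.69 with 1 µM, and 7.32 with 4 µM. The samples at 0.0625, 0.25 and 4 µM lay below all of IL-2 alone, while those at 1 µM lay inside its range. The changes were -0.77 ± 0.23, -0.64 ± 0.18, -0.05 ± 0.18 and -0.42 ± 0.23, and none passed (limma, adjusted p = 0.271, 0.0609, 0.952 and 0.424). Fdps, the farnesyl diphosphate synthase, also lay nearest to 0 at 1 µM, with -0.52, -0.52, -0.06 and -0.53, and Insig1, itself an SREBP target, of -0.61, -0.52, -0.10 and -0.87, all without passing. Fads1 lay above 0 with both inhibitors at every dose, between 0.33 (4 µM JAK3 inhibitor) and 0.67 (1 µM JAK1 inhibitor), and passed at none. The 16 genes that lead to cholesterol had 15 values below 0 at 0.0625 µM, 12 at 0.25 µM, 9 at 1 µM and 12 at 4 µM. Over all genes 7611, 7828, 6198 and 12762 of 19752 lay below 0.

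At 0.25 µM no call was left without either inhibitor sample (Scd1 0.91 and 0.77), and without IL-2 replicate 1, 4 genes passed (1 higher and 3 lower, where 0.764% and 2.9% of all genes were), with Hmgcs1 (-0.73), Idi1 (-0.58) and Lss (-0.75) added. At 1 µM Scd1 alone (1.08) was left without replicate 1 and no call without replicate 2 (Scd1 0.85, Acss2 0.99); Acss2 also lost its call without IL-2 replicate 3 or 4 (0.80 and 0.80). At 4 µM Lss was added (-0.81) without IL-2 replicate 1. After quantile normalization 6 genes were called lower beside 1 called higher at 0.25 µM, where 3.32% of all genes were lower and 2.76% higher. At 1 µM the split was 1 lower beside 2 higher (4.42% and 4.78% of all genes), and at 4 µM it was 2 each way (3.68% and 3.38%), with Fasn lower at 1 µM (-0.64) and 4 µM (-0.77).

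**Figure D4:**
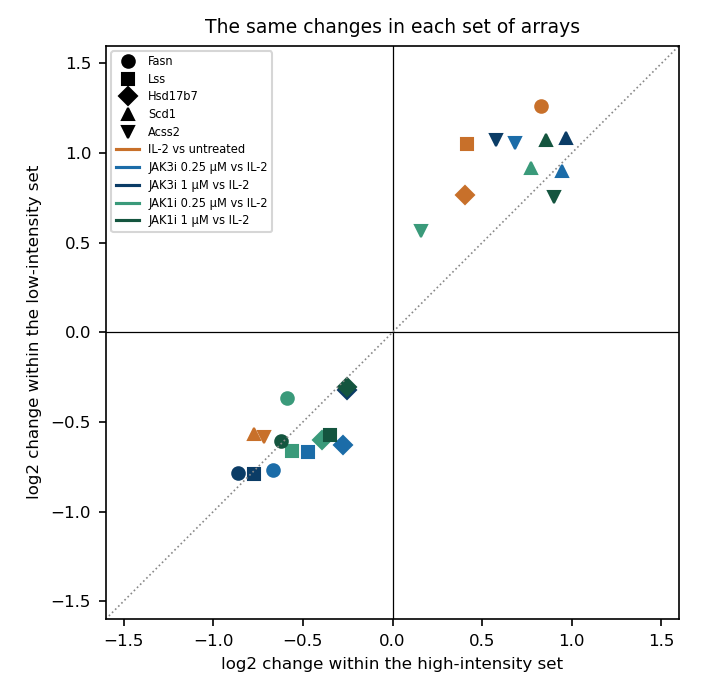
Log2 change of 5 genes within the high-intensity set (x axis) against the same change within the low-intensity set (y axis), for IL-2 over untreated cells and for each inhibitor at 0.25 and 1 µM over IL-2 alone; the dotted line marks equal changes. Every point lies in the lower left or upper right. The 5 genes were chosen from calls in the fit over both sets, so a shared direction is partly built in. Each inhibitor dose is 1 sample in a set, and the untreated side of the high-intensity set is 1 sample without a culture time.

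For IL-2 against untreated cells, and for either inhibitor at 0.25 and 1 µM against IL-2 alone, Fasn, Lss, Hsd17b7, Scd1 and Acss2 had the same direction within each set. These 5 genes had passed in the fit over both sets together, so their shared direction is partly fixed by that choice. Within a set the inhibitor comparisons also share the same samples of IL-2 alone, and each inhibitor dose is 1 sample there. In the high-intensity set the untreated side is 1 sample as well, replicate 2, which carries no culture time. The share of all genes that kept direction was not computed. With 1 µM JAK3 inhibitor, the change of Fasn was -0.86 within the high-intensity set and -0.79 within the low-intensity set, and that of Scd1 was 0.97 and 1.08. With 1 µM JAK1 inhibitor, Scd1 changed by 0.86 and 1.07 in the high- and low-intensity sets. Among these 5 genes and 5 comparisons the sets lay farthest apart for Lss with IL-2 against untreated cells, with 0.42 in the high-intensity and 1.05 in the low-intensity set. For Acss2 the gap was widest at 1 µM JAK3 inhibitor, with 0.58 and 1.07. At 4 µM, where all inhibitor samples lay in the low-intensity set, that set gave -0.97 for Lss (limma, adjusted p = 0.0370), -1.03 for Fasn and 0.79 for Scd1 with the JAK3 inhibitor, and 1.01 for Scd1 with the JAK1 inhibitor.

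The inhibitors were compared with each other at 0.25, 1 and 4 µM, which gave 93 gene comparisons over the 31 genes, with p-values adjusted over all 19752 genes at each dose. None passed. Of all genes 0.238% were called higher and 0.213% lower with JAK1 inhibitor than with JAK3 inhibitor at 0.25 µM, and 0% in either direction at 1 and 4 µM. At an unadjusted p under 0.05 there were 2, 0 and 0 of the 31 genes and 1301, 167 and 532 of all genes. For Fasn the difference was 0.24 (95% confidence interval -0.30 to 0.77) at 0.25 µM, 0.21 (-0.32 to 0.74) at 1 µM and 0.13 (-0.53 to 0.78) at 4 µM. For Scd1 it was -0.08 (-0.46 to 0.31), -0.06 (-0.45 to 0.32) and 0.22 (-0.26 to 0.69). Within the sets of arrays these differences did not all keep their direction, and that of Acss2 at 1 µM was 0.32 in the high-intensity and -0.32 in the low-intensity set. The intervals are not adjusted for the number of genes, and they still hold differences up to their bounds. The results therefore do not show that the inhibitors act alike.

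The widest gaps at 0.25 µM were in Acss2, Hmgcs1 and Fdps. Acss2 read 7.34 and 7.62 with the JAK1 inhibitor and 7.86 and 8.11 with the JAK3 inhibitor, a difference of -0.51 (interval -1.02 to 0.01). Hmgcs1 read 7.10 and 7.08 with the JAK1 inhibitor and 7.49 and 7.66 with the JAK3 inhibitor, a difference of -0.49 (-0.91 to -0.07; limma, adjusted p = 0.601). Fdps differed by -0.45 (-0.88 to -0.03; adjusted p = 0.691). These 3 genes were picked for their wide gaps, so the separation of their samples follows in part from that choice. When only these 4 samples were fitted, with 1 residual degree of freedom, the 3 genes passed as lower and no other gene of the list passed. Of all genes 4.09% were called lower in that fit. The calls of the 3 genes also follow in part from the choice, since the same samples showed the gaps. They are therefore not read as support for a difference, and in the fit over all samples none of the 3 passed. At this dose 3 of 4 IL-2 response genes were higher with JAK1 inhibitor, and 6 of 13 macrophage and monocyte markers were lower.

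At 4 µM the 31 genes were also set against untreated cells. None passed for either inhibitor, and 0% of all genes were called, higher or lower, by limma; 1714 genes with the JAK3 inhibitor and 1270 with the JAK1 inhibitor had an unadjusted p under 0.05. Fasn averaged 8.21 with 4 µM JAK3 inhibitor and 8.10 in untreated cells, a difference of 0.10 (95% confidence interval -0.39 to 0.60), and the JAK1 inhibitor sample, at 8.33, differed from untreated cells by 0.23 (-0.39 to 0.85). For Lss the differences were -0.07 (-0.49 to 0.35) with JAK3 inhibitor and 0.10 (-0.43 to 0.62) with JAK1 inhibitor. For Scd1 they were 0.15 (-0.21 to 0.50) and 0.36 (-0.09 to 0.81). These differences changed with the samples that stood low. Without untreated replicate 3 those of the JAK3 inhibitor were -0.22 for Fasn, -0.30 for Lss and -0.07 for Scd1, and those of the JAK1 inhibitor were -0.09, -0.13 and 0.14. Without 4 µM JAK3 inhibitor replicate 1 those of the JAK3 inhibitor were 0.47, 0.08 and 0.04, and none passed in these fits. Insig1 was the gene with the smallest unadjusted p for the JAK1 inhibitor (-0.60, unadjusted p = 0.0376) and Nsdhl for the JAK3 inhibitor (0.41, unadjusted p = 0.0333).

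Other genes of lipid supply were read from lists set apart from the 31. Of 17 measured genes of sterol uptake, trafficking and further synthesis, 2 were higher and 2 lower with IL-2 than in untreated cells (median 0.06), where 6.56% of all genes were higher and 2.59% lower; the same shares stand behind the other lists below. Tmem97, which binds sterols, rose by 0.92 ± 0.17, and Lrp8, a lipoprotein receptor, by 0.62 ± 0.14. Lipa, the lysosomal acid lipase, fell (-1.72 ± 0.15), as did Scarb1, the HDL receptor (-0.65 ± 0.18). With the JAK3 inhibitor Lrp8 fell at 1 and 4 µM (-0.53 and -1.02) and Tmem97 likewise (-0.71 and -0.90), and Lipa rose at 0.25, 1 and 4 µM (1.77, 1.77 and 1.75). Scarb1 rose at 0.25 and 1 µM (0.91 and 0.90). With the JAK1 inhibitor Lrp8 fell at 0.25, 1 and 4 µM (-0.61, -0.55 and -0.91), Lipa rose at 1 and 4 µM (1.85 and 1.50) and Scarb1 rose at 1 µM (0.90). Tmem97 passed at none of its doses (-0.38, -0.66, -0.45 and -0.68 at 0.0625, 0.25, 1 and 4 µM).

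Of 12 genes of sterol efflux and the LXR receptors 3 fell with IL-2: Apoe (-1.02), the cholesterol exporter Abca1 (-0.89) and Nr1h3, which encodes LXR alpha (-0.48). Apoe rose with the JAK3 inhibitor at all 3 doses (1.09, 1.12 and 1.12), as did Abca1 (0.93, 0.93 and 1.03), and Nr1h3 rose at 0.25 and 1 µM (0.60 and 0.68). With the JAK1 inhibitor all 3 rose at 1 µM (Apoe 1.15, Abca1 1.06 and Nr1h3 0.57), and Apoe also at 4 µM (0.95). Macrophages express Apoe, Abca1, Nr1h3 and Lipa strongly, and the macrophage and monocyte markers moved with them as given above; their part in the result was not tested. Of 33 further genes of fatty acid synthesis and activation 4 rose and 2 fell with IL-2. The acyltransferases Agpat3 (1.56) and Agpat5 (0.91), the acyl-CoA synthetase Acsl5 (0.76) and Hacd3 (0.71), which lengthens fatty acids, were higher, and Idh1, which makes cytosolic NADPH, was lower (-2.07), as was the fatty acid carrier Fabp5 (-0.46). Agpat3 was lower with the JAK3 inhibitor at each dose (-1.21, -1.42 and -1.47) and Idh1 higher (1.57, 2.08 and 2.31). With the JAK1 inhibitor Agpat3 was lower at 0.25, 1 and 4 µM (-1.06, -1.10 and -1.47) and Idh1 higher (0.76, 1.99 and 2.34). Of 23 genes of fatty acid oxidation 1 was higher with IL-2 (Etfb, 0.60) and 0 lower. Cpt1a, which admits fatty acids to mitochondria, was higher with the JAK3 inhibitor than with IL-2 alone at each dose (0.85, 0.88 and 1.08), and with the JAK1 inhibitor at 1 and 4 µM (0.83 and 0.96).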

How the data were processed

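Arrays of 19 samples were read from the deposited table of linear intensities, which the authors made with Affymetrix Power Tools and RMA, per the submitters' processing notes; versions, genome build and the grouping of arrays are not given in the sources used here. Values were turned into log2. The table holds 24922 probe sets. Those with a single gene symbol (21425) were kept; 1399 with several symbols and 2098 outside the annotation table were not. Where a gene had more than 1 probe set (921 genes), the brightest on average was taken. The widest gap between array medians (its middle at 6.69 on the log2 scale) divided the arrays, and those above it formed the high-intensity set (medians 7.49 to 7.59, against 5.70 to 5.90). In the high-intensity set 20.0% of probe sets held 1 identical value in at least 3 arrays, against 0.0% in the low-intensity set. Correlations between samples of a group were 0.961 to 0.995. limma 3.58.1 in R 4.3.3 fitted a mean per group and the set term over all samples, with an intensity trend (9 residual and 10.5 prior degrees of freedom), and was tested on simulated data. Adjusted p-values are limma's. The genes, lists and motifs were chosen with earlier results of these data known. Values in every sample are printed for the genes that passed in a comparison, and for Hmgcs1, which was chosen after its values were seen; other lists are represented by up to 4 genes with the smallest p for IL-2, and Tmem97, Cpt1a and inhibitor values of list genes were likewise picked out. Alternatives were the title form as term, quantile normalization, centring on medians, only the compared groups, a replicate block, each set alone, a filter on dim genes, means of probe sets, no trend, and leaving out each sample. Probe cross-hybridization between related genes such as Scd1 and Scd2 could not be checked. Python 3.11.15, numpy 2.4.6, pandas 2.3.3 and matplotlib 3.10.9 were used as well.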

Additional observations from a re-analysis of the deposited data

Results flagged for a closer look

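Idi1, the isopentenyl isomerase gene, had a low value in 1 of the 4 samples of IL-2 alone: replicate 1 read 7.52 against 7.89 for the nearest of the other 3 (set-adjusted log2). The gap was 0.914 of the whole range of the group, above Dixon's 95% critical value for 4 samples. Of 31 genes tested this way in the IL-2 group 1 stood out, and chance gives about 1 in 20.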

How the results depend on the processing

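The 17 calls of single genes were recomputed under 270 alternatives in all: 189 kept the call, 81 lost it and 0 changed direction. With the title form in place of the set, which leaves 1 sample of 4 µM JAK3 inhibitor on the wrong scale, 0 genes were called for IL-2 against untreated cells, for the JAK3 inhibitor at 0.25 and 1 µM and for the JAK1 inhibitor at 0.25, 1 and 4 µM, and 9 (all lower, as were 44.9% of all genes) for 4 µM JAK3 inhibitor. Quantile normalization gave 5 calls at 0.25 µM (9.04% of all genes were called) and 8 at 4 µM JAK3 inhibitor (13.1%), and 7 at 0.25 µM (6.09%) and 4 at 4 µM JAK1 inhibitor (7.06%). Centring arrays on their medians gave 1 call each at 0.25 µM JAK3 inhibitor and 1 µM JAK1 inhibitor (4.38% and 4.4% of all genes). Fitting the compared groups alone gave 7 calls at 0.25 µM JAK3 inhibitor (11.4% of all genes), 10, 5 and 7 at 0.25, 1 and 4 µM JAK1 inhibitor (8.96%, 10.6% and 8.83%), and 3 between the inhibitors at 0.25 µM (5.64%). Leaving out the dimmest 30% of genes gave 5 at 4 µM JAK3 inhibitor (10.7% of the genes kept) and 2 at 0.25 µM JAK1 inhibitor (3.75%), and no trend gave 2 at 0.25 µM JAK1 inhibitor (2.47% of all genes). The low-intensity set alone (3 residual degrees of freedom) gave 1 call for IL-2 (4.87% of all genes), 0 at 0.25 and 1 µM and 1 at 4 µM JAK3 inhibitor (3.23%), and 0 at 0.25, 1 and 4 µM JAK1 inhibitor. The high-intensity set alone (1 residual degree of freedom) gave 0 for IL-2 and for either inhibitor at 0.25 and 1 µM, and no value at 0.0625 and 4 µM. Apart from the construction of these alternatives, the cause was not tested.

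Replicate numbers are shared between groups, but nothing says that they pair samples, and 16 of 45 pairs with the same number had residual correlations over 0.1, beside 29 of 94 pairs with other numbers. With the replicate number as a block the counts were 10 for IL-2 (8 higher and 2 lower, where 12.3% and 4.08% of all genes were), 2 at 1 µM and 0 at 4 µM JAK3 inhibitor (4.3% and 2.92% of all genes), and 0 at 0.25 and 4 µM JAK1 inhibitor (0.678% and 2.05%). Leaving out each sample in turn gave 3 to 6 calls for IL-2, 0 to 4, 1 to 4 and 1 to 6 at 0.25, 1 and 4 µM JAK3 inhibitor, and 0 to 0, 0 to 4, 0 to 2 and 1 to 2 at 0.0625, 0.25, 1 and 4 µM JAK1 inhibitor. It gave 0 to 0 between the inhibitors and against untreated cells. Groups of 1 or 2 arrays limit the precision of all inhibitor values, and no background measure was used, so signal over background is unknown.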
